A study of Mus musculus with 6 samples.

Results

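The interferon response genes of immortalised mouse granulocyte-monocyte progenitors (iGMPs) were followed while either of 2 regulators of the progenitor state was switched off. The 37 genes of the list were taken by name, with no limit on their values in these libraries, and 36 of them were found among the 27998 genes of the count table (Mx2 was not analysed here). The list holds ISG15 and its protease, antiviral effectors, transcription factors, nucleic acid sensors, membrane restriction factors, interferon-gamma-inducible GTPases, antigen processing genes and further induced genes. All 36 had at least 1 UMI (unique molecular identifier, 1 per captured molecule) in the kept cells.

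The cells were C57BI/6 bone marrow progenitors held in an undifferentiated state by HOXA9 fused to the oestrogen receptor (labelled Lys-GFP-ER-HoxA9 cells), which is active while estradiol is present, and they carry a GFP reporter in the lysozyme gene. In the CAF-1 OFF libraries, a clone with an IPTG-inducible hairpin was sampled, which targets Chaf1b and so the histone chaperone CAF-1, before IPTG (0 h) and after 48 and 96 h in 500 µM IPTG, with estradiol at 150 ng/ml throughout. In the HOXA9 OFF libraries, a clone with a control hairpin was sampled in estradiol at 150 ng/ml (0 h) and 48 and 96 h after estradiol was washed out. All cells were grown in medium conditioned by SCF-producing cells, and live cells were sorted before 10x 3′ single-cell RNA sequencing. Each of the 6 groups was 1 library and each of the 2 series was 1 clone, so no difference below has a replicate check, no p-value is given, and clone and treatment cannot be told apart between the series. Each later library was compared with the 0 h library of its own clone.

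After the filters of the study (200 to 6000 genes per cell, at most 10% mitochondrial UMIs), 5872 cells were kept and 1949 barcodes were removed. The removed share was highest in the 0 h libraries, at 41.7% for the CAF-1 OFF clone and 66.2% for the HOXA9 OFF clone, against 0.198% to 18.3% in the later libraries. The libraries held 473 to 1510 kept cells and 3524285 to 5589486 UMIs. The median cell held 8660 UMIs at HOXA9 OFF 0 h and 2043.5 at HOXA9 OFF 96 h, against 5956 to 6571 in the CAF-1 OFF libraries. Levels are therefore given as CPM, the UMIs of a gene per 1000000 UMIs of its library, and UMIs per cell are added where the difference in RNA content matters. Because 3′ sequencing counts molecules, levels were not divided by gene length. Chaf1b stood at 35.6, 3.22 and 6.49 CPM at 0, 48 and 96 h of CAF-1 OFF, and at 51.5, 15.3 and 1.13 CPM at the same times of HOXA9 OFF, so it was lower in the later libraries of both series. Of the barcode sequences, 34 occurred in more than 1 library, and 49 kept cells carried one of them.

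Interferons are secreted proteins that bind receptors on the cell surface. Type I interferon signals through the kinases JAK1 and TYK2 to transcription factors, STAT2 and IRF9 among them, that bind the interferon-stimulated response element and switch on genes whose products degrade viral RNA, block virus entry or present antigen. Interferon-gamma acts through a receptor of its own and raises GTPases, immunoproteasome subunits and class I antigen presentation. Many of these genes are also used at rest in stem cells and in myeloid cells, and some are raised during granulocyte and monocyte differentiation without infection.

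Of the 36 members, 3 exceeded their 0 h level by 2-fold or more after 48 h of CAF-1 OFF and 11 did after 96 h, on the log2(CPM + 10) scale. Over all 13485 genes with a UMI in at least 3 cells, 1.27% and 2.75% were higher by this measure. In HOXA9 OFF, 5 members were higher at 48 h and 28 at 96 h, against 6% and 10.3% of all genes. No member was 2-fold lower in any of these 4 comparisons, while 0.0297% and 0.386% of all genes were lower at 48 and 96 h of CAF-1 OFF, and 8.4% and 18.3% at the same times of HOXA9 OFF. The median log2 ratio of the members was 0.58 and 0.71 at 48 and 96 h of CAF-1 OFF and 0.43 and 1.85 at those of HOXA9 OFF, and that of all genes lay between -0.07 and 0.03. Between the 2 libraries at 0 h no member differed 2-fold, and 0.349% of all genes were higher and 0.0519% lower in the HOXA9 OFF clone.

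A minimum mean of 20 CPM over the 6 libraries left 21 members, of which 2, 9, 5 and 17 were 2-fold higher in the same 4 comparisons, against 2.76%, 5.22%, 13% and 18.1% of the genes that passed. Only 10 members reached that mean without HOXA9 OFF 96 h, so the 21 were in part kept because they were high there. With exact 95% binomial intervals on the fold change itself, the interval lay above 1 (or a bound against a count of 0 did) for 26 members at 48 h and 31 at 96 h of CAF-1 OFF, against 18.5% and 20.7% of all 13485 genes, and below 1 for 0 members, against 12.2% and 19.8%. In HOXA9 OFF it lay above 1 for 21 members at 48 h and 34 at 96 h, where 21.4% and 23.3% of all genes did, and below 1 for 5 and 1, where 33.2% and 40% did. Abundant genes pass this rule at small folds. These intervals, and all intervals below, cover counting error only and leave out the spread between cultures. The plot of member levels shows each gene in each library.

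**Figure D1:**
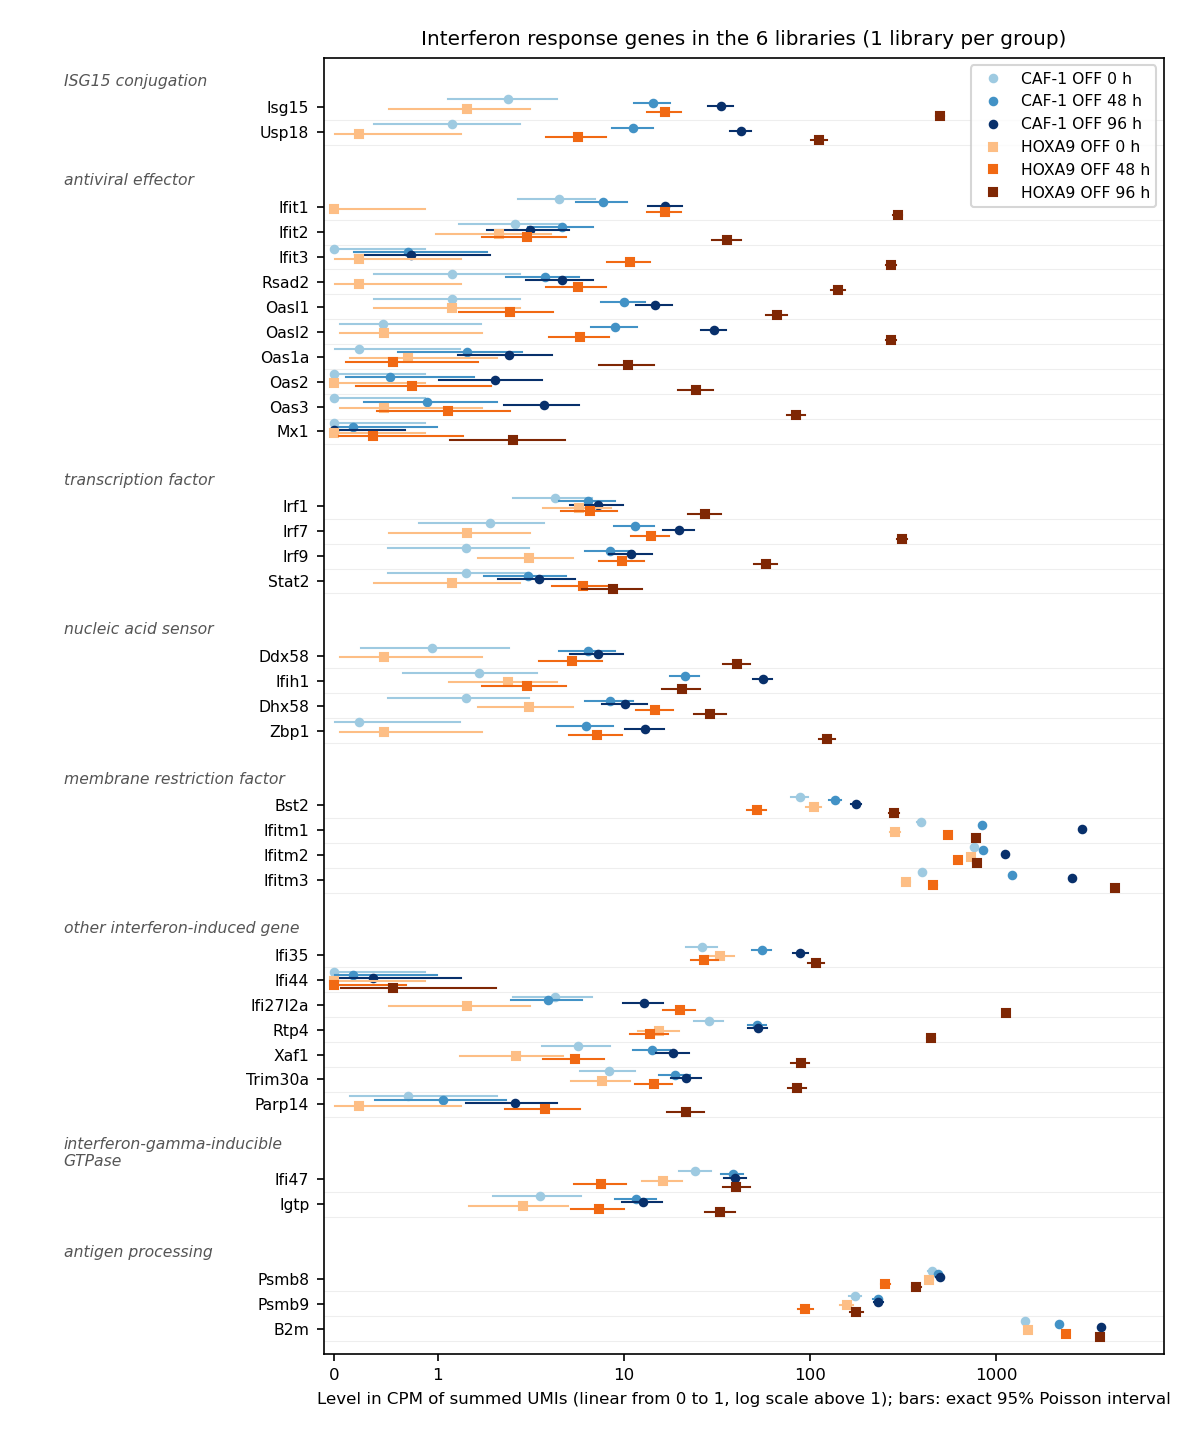
Level of each of the 36 interferon response genes in each of the 6 libraries, grouped by role, in CPM on an axis that is linear from 0 to 1 and logarithmic above. Circles stand for CAF-1 OFF and squares for HOXA9 OFF libraries, darker at later times, with exact 95% Poisson intervals. The HOXA9 OFF 96 h square lies far to the right for Isg15 (499 CPM), Ifi27l2a (1128 CPM) and Irf7 (314 CPM), while the CAF-1 OFF 96 h circle is the highest for Ifih1 (55.8 CPM) and Ifitm1 (2916 CPM).

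Regulatory sequence was examined for the members because many of them were higher together. Of the 36 members, 28 had an entry in the RefSeq promoter set (GRCm38.p6, 250 bases before to 50 after the transcription start). The motif searched was a GAAA block, any 2 bases and a further GAAA block, on either strand (TTTC blocks on the other), which is the repeated core of the interferon-stimulated response element. It was found in any window of 15 of these 28 members (53.6%), against 3.99% of the 27025 gene symbols in the set. The sequences of 3 genes with several matches and of Ifih1 are shown because the results below turn on these genes. The capitals mark the GAAA or TTTC blocks of each match, and the strand is that of the gene. The windows of Isg15 (chr4:156200819-156201068, minus strand), Ifit1 (chr19:34640639-34640888, plus strand) and Ifit3 (chr19:34583279-34583528, plus strand) are the 250 bases before the start, and that of Ifih1 (chr2:62646206-62646235, minus strand) is 30 bases around its match, which begins 33 bases after the start.
Isg15: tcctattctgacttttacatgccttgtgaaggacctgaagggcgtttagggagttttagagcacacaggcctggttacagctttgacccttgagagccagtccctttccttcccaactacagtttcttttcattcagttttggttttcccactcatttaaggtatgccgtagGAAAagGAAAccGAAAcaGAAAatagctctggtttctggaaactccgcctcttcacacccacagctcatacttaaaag
Ifit1: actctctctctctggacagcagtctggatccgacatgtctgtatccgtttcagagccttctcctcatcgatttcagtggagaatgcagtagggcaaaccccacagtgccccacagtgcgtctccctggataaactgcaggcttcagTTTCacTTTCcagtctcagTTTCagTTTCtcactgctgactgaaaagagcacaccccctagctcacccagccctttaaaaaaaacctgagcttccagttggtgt
Ifit3: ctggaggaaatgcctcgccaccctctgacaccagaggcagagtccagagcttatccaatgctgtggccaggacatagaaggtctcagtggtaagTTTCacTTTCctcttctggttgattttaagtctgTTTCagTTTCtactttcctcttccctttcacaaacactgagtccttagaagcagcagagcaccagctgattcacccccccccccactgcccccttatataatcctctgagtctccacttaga
Ifih1: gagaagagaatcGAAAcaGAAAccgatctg

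Isg15 held 3 overlapping matches, so that 4 GAAA blocks stand in a row, and Ifit1 and Ifit3 held 2 separate matches each. The median log2 ratio at HOXA9 OFF 96 h was 2.27 for the 15 members with a match, 1.46 for the 13 without and 2.68 for the 8 with no entry. After 96 h of CAF-1 OFF the medians were 0.74, 0.85 and 0.68. A match is a description of these letters and not of a bound site.

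ISG15 is a ubiquitin-like protein that is attached to other proteins, and USP18 removes it and also dampens signalling at the type I interferon receptor. Isg15 stood at 2.37, 14.3 and 33.2 CPM at 0, 48 and 96 h of CAF-1 OFF, and the HOXA9 OFF libraries had 1.43, 16.6 and 499 CPM. The level was higher at each later time in both series, and the HOXA9 OFF 96 h library stood far above all others. The fold over 0 h was 14.0 (95% interval 7.43 to 29.7) at 96 h of CAF-1 OFF and 349 (160 to 951) in HOXA9 OFF. Usp18 stood at 1.19, 11.3 and 42.6 CPM over the CAF-1 OFF time course and at 0.239, 5.65 and 112 CPM over the HOXA9 OFF time course. It was 35.9-fold higher (15.2 to 112) after 96 h of CAF-1 OFF. Per cell the 2 libraries at 96 h were close for Usp18, with 0.252 UMIs per cell after CAF-1 OFF and 0.262 after HOXA9 OFF.

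The IFIT proteins bind foreign RNA and block its translation. In CAF-1 OFF cells Ifit1 stood at 4.51, 7.69 and 16.7 CPM, and HOXA9 OFF cells had 0, 16.6 and 296 CPM. Ifit3 had 0, 4 and 4 UMIs in CAF-1 OFF (0, 0.716 and 0.742 CPM), and 1, 57 and 962 UMIs in HOXA9 OFF (0.239, 10.7 and 273 CPM). Both genes lie on chromosome 19 but differed between the series, since Ifit3 was almost absent from all 3 CAF-1 OFF libraries. At HOXA9 OFF 96 h, Ifit1 was at least 413-fold higher than at 0 h, taking the limit of 3 counts that 0 UMIs allow in the 0 h library, and Ifit3 had 962 UMIs against 1 at 0 h (fold 1144, 205 to 45223). Ifit2 was low in all but the last HOXA9 OFF library, with 2.61, 4.65 and 3.15 CPM along CAF-1 OFF and 2.15, 3.01 and 35.8 CPM along HOXA9 OFF. Its interval in CAF-1 OFF spanned 1 at both times, and at HOXA9 OFF 96 h it was 16.6-fold higher (8.49 to 37.2). Reads of Ifit3 and Ifit3b, and of Ifit1 and its near copies, could be split by the counting, so the single levels are uncertain.

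Viperin, encoded by Rsad2, makes a nucleotide that stops viral polymerases. The levels of Rsad2 were 1.19, 3.76 and 4.63 CPM with CAF-1 OFF and 0.239, 5.65 and 141 CPM with HOXA9 OFF, so that all 3 CAF-1 OFF levels were under 5 CPM. The oligoadenylate synthetases sense double-stranded RNA and switch on an RNase, and the OASL proteins are their relatives. Oasl2 was measured at 0.475, 8.95 and 30.4 CPM along CAF-1 OFF and at 0.477, 5.84 and 273 CPM along HOXA9 OFF. Oasl1, which limits translation of Irf7, stood at 1.19, 10.0 and 14.6 CPM over the CAF-1 OFF time course and at 1.19, 2.45 and 66.4 CPM over the HOXA9 OFF time course. Both were past 2-fold in both series at 96 h, with folds in CAF-1 OFF of 64.1 (17.5 to 533) for Oasl2 and 12.3 (5.07 to 39.1) for Oasl1. With CAF-1 OFF, Oas3 stood at 0, 0.895 and 3.71 CPM, and HOXA9 OFF cells had 0.477, 1.13 and 84.3 CPM. The levels of Oas2 were 0, 0.537 and 2.04 CPM with CAF-1 OFF and 0, 0.753 and 24.4 CPM with HOXA9 OFF. Oas1a had at most 37 UMIs (10.5 CPM, HOXA9 OFF 96 h), and its reads can fall on near-identical Oas1 copies. Mx1, a GTPase that traps viral nucleoproteins, had 9 UMIs at HOXA9 OFF 96 h and at most 2 in any other library. Of the 10 antiviral effectors, 2 were past 2-fold on the log2(CPM + 10) scale after 96 h of CAF-1 OFF and 8 at HOXA9 OFF 96 h. Over all genes the shares were 2.75% and 10.3%. As a ratio of CPM without the added 10, Ifit1 was 3.70-fold, Rsad2 3.91-fold and Oas1a 10.2-fold above 0 h after 96 h of CAF-1 OFF, at low levels.

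The transcription factors of the response differed in how far they moved. IRF7 drives interferon alpha genes and amplifies the response. Irf7 was measured at 1.90, 11.5 and 19.8 CPM along CAF-1 OFF and at 1.43, 13.9 and 314 CPM along HOXA9 OFF, a fold of 10.4 (5.12 to 24.8) and 219 (100 to 598) at 96 h. STAT2 and IRF9 act together at the response element. Irf9 stood at 1.42, 8.41 and 10.9 CPM over the CAF-1 OFF time course and at 3.10, 9.79 and 57.9 CPM over the HOXA9 OFF time course. Stat2 was low in every library, with at most 32 UMIs and 8.80 CPM. Irf1, a factor that acts mainly downstream of interferon-gamma, stood at 4.27, 6.44 and 7.23 CPM along CAF-1 OFF, where both intervals spanned 1, and at 5.73, 6.59 and 27.2 CPM along HOXA9 OFF. Among these 4 factors, Irf7 was the only one past 2-fold in CAF-1 OFF on the log2(CPM + 10) scale. Irf1, Irf7 and Irf9 were at HOXA9 OFF 96 h. Over all genes the shares at 96 h were 2.75% and 10.3%. As a ratio of CPM without the added 10, Irf9 was 7.68-fold and Stat2 2.47-fold above 0 h after 96 h of CAF-1 OFF. At HOXA9 OFF 96 h Stat2 was 7.37-fold above 0 h by that ratio.

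The sensors of foreign nucleic acid included a member that was higher at CAF-1 OFF 96 h than at HOXA9 OFF 96 h. Ifih1 encodes MDA5, which recognises long double-stranded RNA. In CAF-1 OFF cells Ifih1 stood at 1.66, 21.3 and 55.8 CPM, and HOXA9 OFF cells had 2.39, 3.01 and 20.4 CPM. It was 12.8-fold higher (6.03 to 32.6) at 48 h and 33.6-fold higher (16.1 to 84.3) at 96 h of CAF-1 OFF, while the HOXA9 OFF folds were 1.26 (0.539 to 3.11) and 8.56 (4.4 to 18.6). At 96 h the HOXA9 OFF library had 0.366 times the CPM of the CAF-1 OFF library (0.279 to 0.475), and 0.0477 against 0.330 UMIs per cell. Its UMIs were spread over 216 cells of the CAF-1 OFF 96 h library.

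The other sensors were higher in HOXA9 OFF at 96 h. Ddx58 (RIG-I, a sensor of viral RNA ends) was measured at 0.949, 6.44 and 7.23 CPM along CAF-1 OFF and at 0.477, 5.27 and 40.6 CPM along HOXA9 OFF. Dhx58 (LGP2, a relative that modulates both) was measured at 1.42, 8.41 and 10.2 CPM along CAF-1 OFF and at 3.10, 14.7 and 29.2 CPM along HOXA9 OFF. The Z-nucleic acid sensor Zbp1 stood at 0.237, 6.26 and 13 CPM over the CAF-1 OFF time course and at 0.477, 7.16 and 124 CPM over the HOXA9 OFF time course. On the log2(CPM + 10) scale Ifih1 and Zbp1 were past 2-fold after 96 h of CAF-1 OFF, and all 4 sensors were at HOXA9 OFF 96 h. Over all genes the shares were 2.75% and 10.3%. As a ratio of CPM without the added 10, Ddx58 was 7.62-fold and Dhx58 7.16-fold above 0 h after 96 h of CAF-1 OFF.

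The membrane restriction factors were already expressed before either switch. IFITM proteins sit in membranes and hinder virus entry. With CAF-1 OFF, Ifitm1 stood at 396, 845 and 2916 CPM, and HOXA9 OFF cells had 287, 552 and 780.3 CPM. It was 7.35-fold higher (6.99 to 7.74) after 96 h of CAF-1 OFF and 2.72-fold higher (2.54 to 2.92) in HOXA9 OFF. In UMIs per cell Ifitm1 went from 2.58 to 17.3 over 96 h of CAF-1 OFF and from 2.54 to 1.82 in HOXA9 OFF, so the direction in HOXA9 OFF depends on whether levels are taken as CPM or per cell. At 96 h the HOXA9 OFF library had 0.268 times the CPM of the CAF-1 OFF library (0.257 to 0.279).

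The levels of Ifitm3 were 403, 1220.0 and 2567 CPM with CAF-1 OFF and 329, 461 and 4378 CPM with HOXA9 OFF. It was 6.37-fold higher (6.06 to 6.71) at 96 h in the first and 13.3-fold higher (12.6 to 14.1) in the second. Ifitm3 and Ifitm1 thus had opposite orders between the 2 libraries at 96 h in CPM, but not per cell. In UMIs per cell Ifitm3 went from 2.62 at 0 h to 15.2 at 96 h of CAF-1 OFF, and from 2.92 to 10.2 in HOXA9 OFF. Both genes were therefore higher per cell at CAF-1 OFF 96 h. Ifitm2 was measured at 764, 854 and 1118 CPM along CAF-1 OFF and at 737, 626 and 786 CPM along HOXA9 OFF, the smallest differences of the family. Its direction in HOXA9 OFF turned with the scaling. At 48 h it was 0.849 times the 0 h level by total UMIs and 1.05 times by TMM, a trimmed-mean scaling of the libraries. At 96 h it was 1.07 times by total UMIs, 1.49 by TMM and 0.794 with mitochondrial and ribosomal genes left out of the total. The Ifitm genes share sequence, so reads may have been split among them. Bst2 (tetherin, which holds budding virus at the membrane) stood at 88.3, 137 and 178 CPM over the CAF-1 OFF time course and at 105, 51.8 and 284 CPM over the HOXA9 OFF time course. In CPM it was below its 0 h level at HOXA9 OFF 48 h (fold 0.493, 0.423 to 0.575) and above it at 96 h (2.70, 2.42 to 3.03). In UMIs per cell Bst2 went from 0.930 to 0.196 and 0.663 in HOXA9 OFF, so its direction at 96 h depends on the measure.

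Among the further induced genes, Ifi27l2a, of the Ifi27 family, had the widest range. In CAF-1 OFF cells Ifi27l2a stood at 4.27, 3.94 and 12.8 CPM, and HOXA9 OFF cells had 1.43, 19.96 and 1128 CPM. At 96 h it was 788-fold above 0 h (362 to 2148) in HOXA9 OFF, 2.99-fold (1.76 to 5.35) in CAF-1 OFF, and 88.2-fold higher (69.5 to 114) in the HOXA9 OFF library than in the CAF-1 OFF library. Rtp4, a receptor transporter protein gene, was measured at 28.7, 52.1 and 52.5 CPM along CAF-1 OFF and at 15.5, 13.7 and 450.3 CPM along HOXA9 OFF. Ifi35 was the most abundant core gene in CAF-1 OFF 96 h and had similar folds in the 2 series in CPM, but not per cell. Ifi35 was measured at 26.3, 55.1 and 89.0 CPM along CAF-1 OFF and at 32.9, 27.1 and 108 CPM along HOXA9 OFF, with folds at 96 h of 3.38 (2.74 to 4.19) and 3.27 (2.69 to 4.01). In UMIs per cell it went from 0.172 at 0 h to 0.527 at 96 h of CAF-1 OFF, and from 0.292 to 0.252 in HOXA9 OFF.

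Xaf1, a partner of the inhibitors of apoptosis, stood at 5.69, 14.1 and 18.4 CPM over the CAF-1 OFF time course and at 2.63, 5.46 and 89.1 CPM over the HOXA9 OFF time course. The ubiquitin ligase gene Trim30a stood at 8.30, 18.8 and 21.7 CPM over the CAF-1 OFF time course and at 7.64, 14.5 and 85.4 CPM over the HOXA9 OFF time course. Parp14, an ADP-ribosyltransferase, was measured at 0.712, 1.07 and 2.60 CPM along CAF-1 OFF and at 0.239, 3.77 and 21.6 CPM along HOXA9 OFF. All 3 were past 2-fold at HOXA9 OFF 96 h and in no other library. Ifi44 had at most 2 UMIs in any library, at or under the limit that a count of 0 allows. On the log2(CPM + 10) scale, 1 (Ifi35) of the 7 genes of this group was past 2-fold after 96 h of CAF-1 OFF. At HOXA9 OFF 96 h 6 of them were. Over all genes the shares were 2.75% and 10.3%.

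The interferon-gamma-inducible GTPases Ifi47 and Igtp attack vacuoles that hold pathogens. Ifi47 was measured at 24.2, 38.5 and 39.7 CPM along CAF-1 OFF and at 16.2, 7.53 and 40.3 CPM along HOXA9 OFF. Igtp stood at 3.56, 11.6 and 12.6 CPM over the CAF-1 OFF time course and at 2.86, 7.34 and 32.9 CPM over the HOXA9 OFF time course. Ifi47 was thus lower than at 0 h at HOXA9 OFF 48 h (fold 0.464, 0.306 to 0.696) and close to the CAF-1 OFF level at 96 h.

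Among the antigen processing members, B2m was past 2-fold at 96 h in both series and Psmb8 and Psmb9 were past it in no comparison. Psmb8 and Psmb9 encode catalytic subunits of the immunoproteasome, and B2m the light chain of class I molecules. With CAF-1 OFF, Psmb8 stood at 452, 491 and 497 CPM, and HOXA9 OFF cells had 439, 254 and 373 CPM. The levels of Psmb9 were 175, 232 and 233 CPM with CAF-1 OFF and 158, 94.7 and 178 CPM with HOXA9 OFF. Both were within 1.33-fold of 0 h in CAF-1 OFF and lower at HOXA9 OFF 48 h, at 0.579 (0.540 to 0.622) and 0.600 (0.534 to 0.675) times the 0 h level. At HOXA9 OFF 96 h the direction of Psmb8 and Psmb9 turned with the scaling, since Psmb8 was 0.851 times its 0 h level by total UMIs and 1.19 by TMM, and Psmb9 1.13 by total UMIs and 0.838 with mitochondrial and ribosomal genes left out of the total. B2m was measured at 1429.6, 2177 and 3679 CPM along CAF-1 OFF and at 1489.9, 2376 and 3613 CPM along HOXA9 OFF. Its folds at 96 h were 2.57 (2.5 to 2.65) and 2.43 (2.35 to 2.5), while UMIs per cell went from 9.31 to 21.8 in CAF-1 OFF and from 13.2 to 8.43 in HOXA9 OFF.

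**Figure D2:**
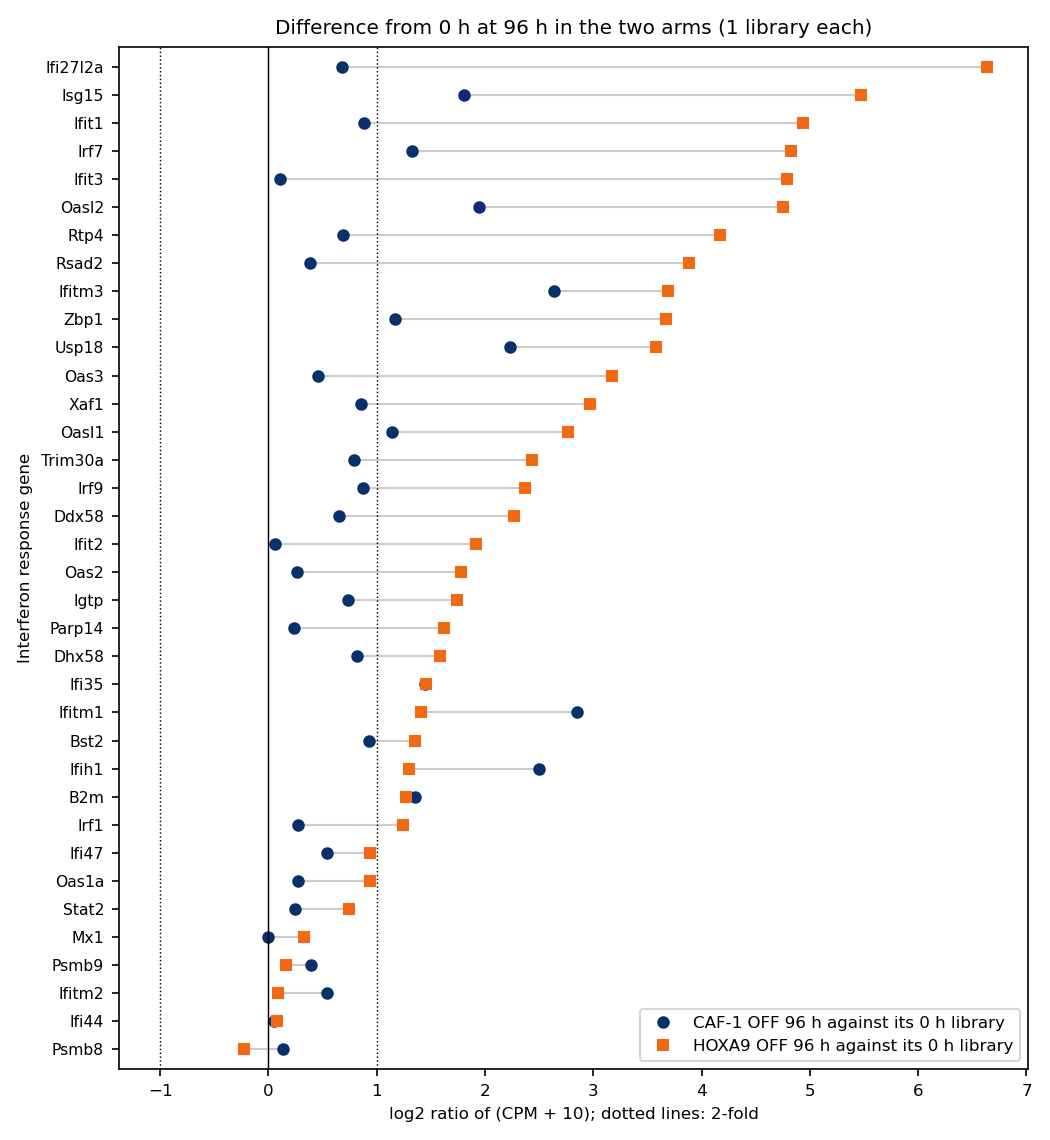
Log2 ratio of (CPM + 10) at 96 h to 0 h for each of the 36 interferon response genes, with a circle for CAF-1 OFF and a square for HOXA9 OFF joined by a line, and dotted lines at 2-fold. The square lies right of the circle for most genes, widest apart for Ifi27l2a (6.64 against 0.68), and left of it for Ifitm1 (1.41 against 2.85) and Ifih1 (1.30 against 2.5).

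Across the 36 members, the HOXA9 OFF 96 h library was higher in CPM than the CAF-1 OFF 96 h library in 28 and lower in 5 by the counting interval, and the interval of 3 spanned 1. Over all genes, 22.6% were higher and 43.6% lower by that interval. The 5 lower members were Ifih1, Ifitm1, Ifitm2, Psmb8 and Psmb9. The order turned with the scaling for 3 of them, since Psmb8 went from 0.751 times the CAF-1 OFF level by total UMIs to 1.02 by TMM, Psmb9 from 0.763 to 1.04, and Ifitm2 from 0.703 to 0.957 by TMM and 1.02 by median of ratios. Ifih1 and Ifitm1 stayed below 1 under these scalings, at 0.531 or less and 0.388 or less. Of the higher members, Ifi35 turned from 1.21 to 0.922 with mitochondrial and ribosomal genes left out of the total. In UMIs per cell the 36 members together were 0.497 times the CAF-1 OFF value, against 1.26 times in CPM, so the counts above hold for CPM. Between the same 2 clones at 0 h, 2 members were higher and 7 lower in the HOXA9 OFF clone by that interval, against 7.16% and 9.03% of all genes.

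The 26 core genes of the list, which leave out the more broadly expressed IFITM, antigen processing, GTPase, Bst2 and Irf1 members, were summed in each library. The core sum was 96.8 CPM (95% exact Poisson interval 87.6 to 107) at 0 h, 275 (261 to 289) at 48 h and 472 (454 to 491) at 96 h of CAF-1 OFF. The HOXA9 OFF sum was 79.7 (71.4 to 88.7), 214 (201 to 227) and 4295 CPM (4227 to 4364). The sum was higher at each later time in both series, by 2.84-fold (2.55 to 3.18) and 4.88-fold (4.39 to 5.43) with CAF-1 OFF and by 2.68-fold (2.37 to 3.04) and 53.9-fold (48.3 to 60.2) with HOXA9 OFF. In UMIs per cell the CAF-1 OFF sum was 0.631, 1.66 and 2.79 and the HOXA9 OFF sum 0.706, 0.808 and 10.0, so that the HOXA9 OFF 48 h cell held 1.14 times the core UMIs of the 0 h cell. The 10 remaining members together were 3.01-fold higher at 96 h of CAF-1 OFF and 2.94-fold in HOXA9 OFF in CPM. In UMIs per cell they went from 24.4 to 66.6 in CAF-1 OFF and from 31.6 to 24.5 in HOXA9 OFF, 2.73 and 0.775 times the 0 h value.

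The make-up of the core sum also differed. At 0 h, Rtp4 and Ifi35 led, with 29.7% and 27.2% of the core UMIs in the CAF-1 OFF clone and 19.5% and 41.3% in the HOXA9 OFF clone. After 96 h of CAF-1 OFF, Ifi35 (18.9%), Ifih1 (11.8%), Rtp4 (11.1%), Usp18 (9.03%) and Isg15 (7.03%) led. At HOXA9 OFF 96 h, Ifi27l2a (26.3%), Isg15 (11.6%), Rtp4 (10.5%), Irf7 (7.30%) and Ifit1 (6.89%) led. Without Ifi27l2a the HOXA9 OFF fold at 96 h was 40.5.

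**Figure D3:**
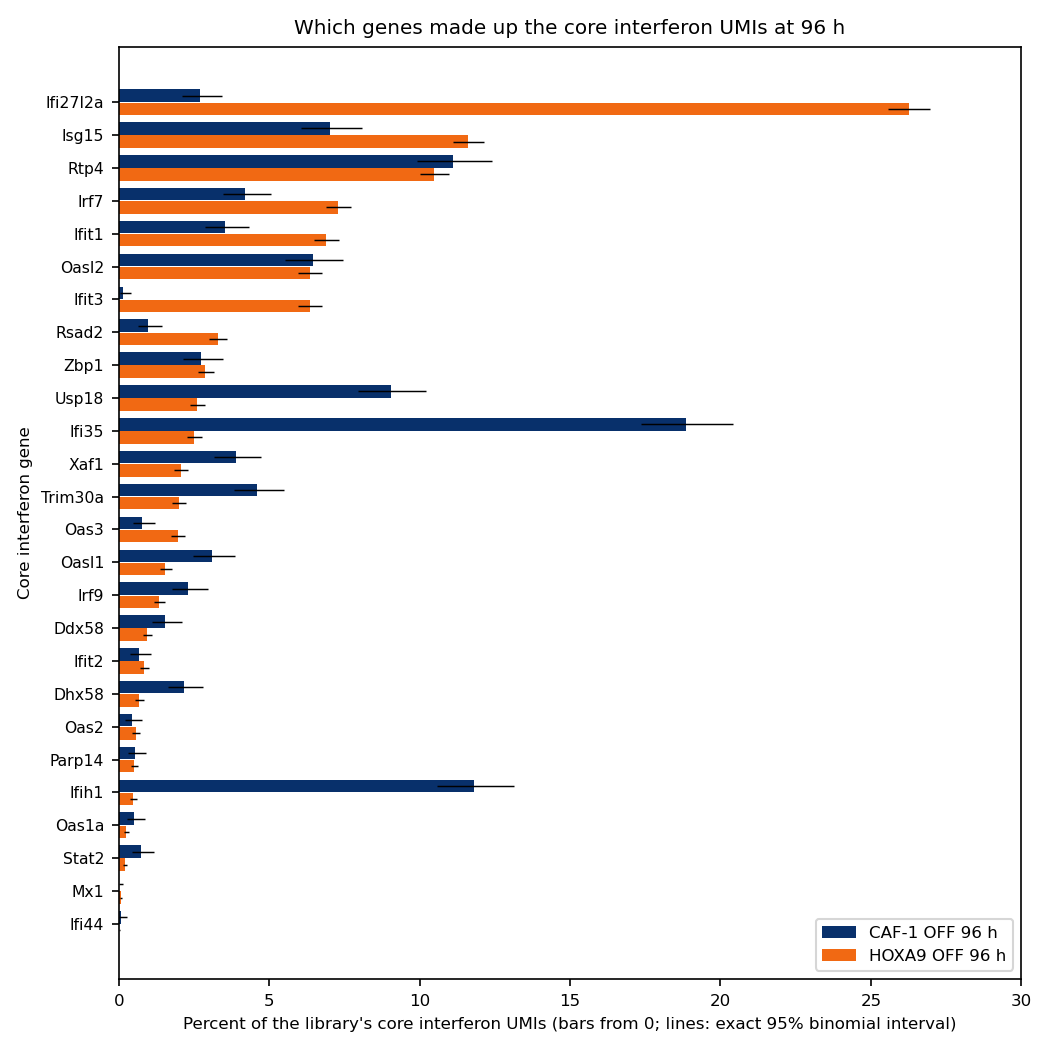
Percent of the core interferon UMIs taken by each of the 26 core genes in the libraries at 96 h, with 1 bar per gene and library and lines for the exact 95% binomial interval. Ifi35 (18.9%), Ifih1 (11.8%) and Usp18 (9.03%) take larger shares in CAF-1 OFF, and Ifi27l2a takes 26.3% in HOXA9 OFF.

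The question whether the response lay in few or in many cells was addressed by drawing 1300 UMIs from each cell, which sets all cells to the same depth and leaves out 1 to 134 shallower cells per library. In CAF-1 OFF, 11.1% of such cells (exact binomial interval 8.72 to 13.8) held a core UMI at 0 h, 28.3% (25.4 to 31.4) at 48 h and 38.6% (35.4 to 41.8) at 96 h. In HOXA9 OFF the shares were 8.90% (6.49 to 11.8), 15.6% (13.7 to 17.7) and 80.7% (78.5 to 82.7). Without thinning they were 40.6%, 68.5% and 77.2% for CAF-1 OFF, against 47.1%, 32.1% and 87.0% for HOXA9 OFF, so that the HOXA9 OFF 48 h share was below that at 0 h until depth was set equal. Genes that blood cells lack (albumin, insulin and the like) gave a UMI in 0 to 2 thinned cells per library, or at most 0.222%.

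At similar means, the 2 libraries at 48 h spread their core UMIs differently. The thinned cell held on average 0.374 core UMIs at CAF-1 OFF 48 h and 0.358 at HOXA9 OFF 48 h. The variance was 1.40 times the mean in the former and 13.4 times in the latter. The top 1% of cells held 11.5% of the core UMIs in the former and 49.5% in the latter, and the highest cell held 9 and 43. At 96 h the CAF-1 OFF library had a mean of 0.609 with 1.22% of cells at 5 core UMIs or more, and the HOXA9 OFF library a mean of 5.44 with 40.0% of cells there. The CAF-1 OFF signal was thus low in each of many cells, the HOXA9 OFF 48 h signal was concentrated in few cells, and the HOXA9 OFF 96 h signal was in most cells at unequal levels.

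**Figure D4:**
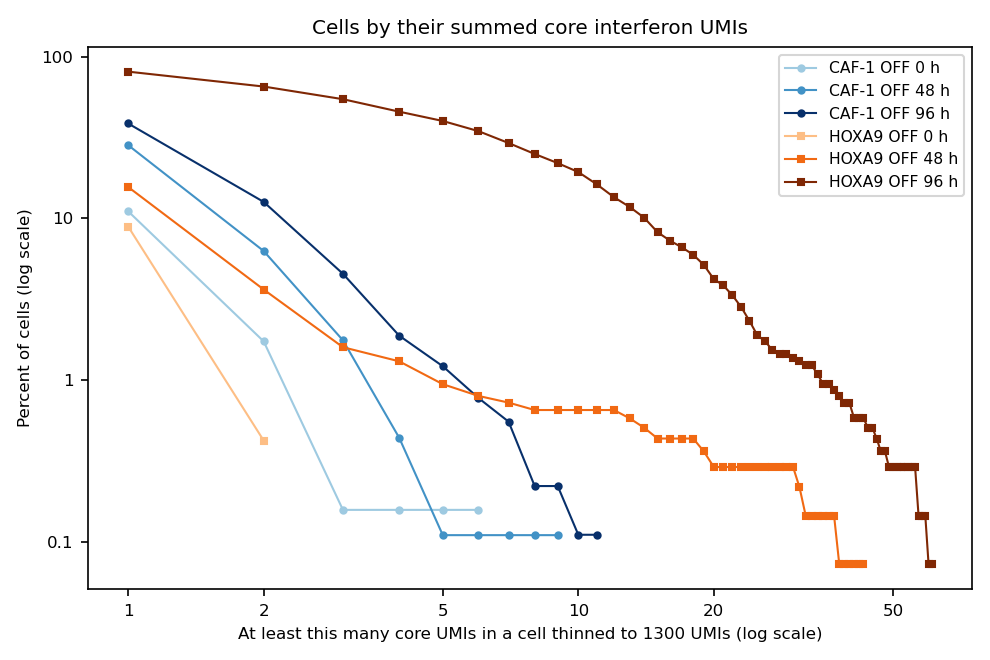
Percent of cells, thinned to 1300 UMIs each, that held at least the number of core interferon UMIs on the x axis, with 1 line per library and both axes logarithmic. The CAF-1 OFF lines end at 6, 9 and 11 UMIs, the HOXA9 OFF 48 h line starts lower than the later CAF-1 OFF lines but runs on to 43, and the HOXA9 OFF 96 h line lies above the others throughout.

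High cells were marked as those with at least 10 core UMIs that made up at least 0.5% of the cell's UMIs. This limit was set after the values were seen and selects on the core genes themselves, so what follows about core genes in these cells is a description. There were 1, 1 and 4 high cells at 0, 48 and 96 h of CAF-1 OFF, against 0, 9 and 386 for HOXA9 OFF. The lowest high cell and the highest other cell stood at 0.813% and 0.373% of UMIs at HOXA9 OFF 48 h. In the HOXA9 OFF 96 h library the lowest high cell stood at 0.502% and the highest other cell with at least 10 core UMIs at 0.499%, so the limit cut a continuous range, and 1 shallow cell with 7 core UMIs reached 0.989%. High cells held 11.3%, 3.38% and 7.31% of the core UMIs of the CAF-1 OFF libraries, and 37.5% and 69.7% at 48 and 96 h of HOXA9 OFF.

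**Figure D5:**
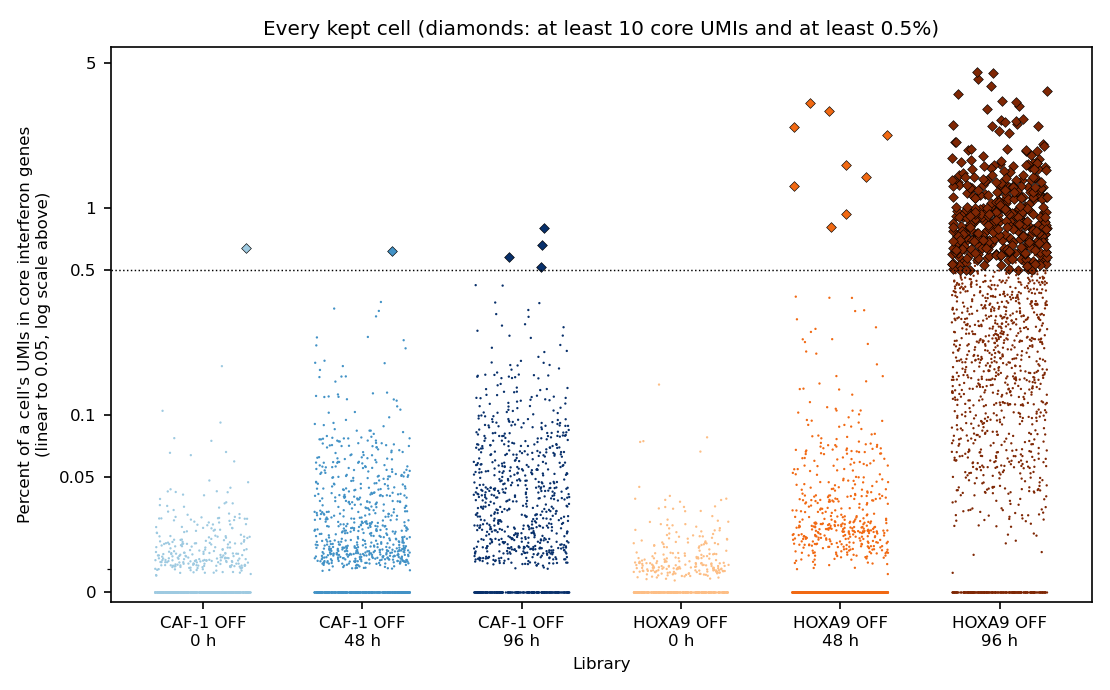
Percent of each kept cell's UMIs that fell in core interferon genes, 1 point per cell in a column per library, on an axis that is linear to 0.05 and logarithmic above; the sideways scatter has no meaning. Diamonds mark high cells (at least 10 core UMIs and at least 0.5%). A gap (0.373% to 0.813%) separates the 9 diamonds at HOXA9 OFF 48 h from the other cells, and at HOXA9 OFF 96 h the cells run on without one.

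The 9 cells at HOXA9 OFF 48 h held 426 of the 1135 core UMIs among 1404 cells. Each carried 23 to 77 core UMIs from 11 to 19 core genes, and 1635 to 3110 UMIs in all, with a median of 2830 against 3542 in the other cells. They held 79 of the 88 UMIs of Ifit1, 50 of 57 of Ifit3, 27 of 30 of Usp18 and 50 of 74 of Irf7. Of other members they held smaller shares, with 6 of 144 UMIs of Ifi35, 4 of 78 of Dhx58, 3 of 52 of Irf9 and 1 of 32 of Stat2. In CPM these members were still higher in the 9 cells, on few UMIs. Ifi35 stood at 254 CPM against 26.1 in the other cells, Dhx58 at 169 against 14.0 and Irf9 at 127 against 9.27. Stat2 stood at 42.3 against 5.86. Outside the 9 cells, Ifit1 stood at 1.70 CPM, Ifit3 at 1.32 and Usp18 at 0.567. Without the 9 cells, 0 members were 2-fold higher at HOXA9 OFF 48 h in place of 5, 1 (Bst2) was lower, and the core fold was 1.68 (1.48 to 1.92) in place of 2.68. The cells were chosen by core UMIs, so fewer calls and a lower core fold follow from that choice. The share of all genes without these cells was not counted.

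Markers that the limit did not use set these 9 cells apart. Their summed monocyte or macrophage markers stood at 6177 CPM against 875 in the other cells, with Ms4a6c at 2835 against 113, Ccr2 at 846 against 57.1 and Ly6c2 at 1523 against 459. Csf1r stood at 296 against 56.6, while Cx3cr1 had 0 UMIs in them. Neutrophil markers stood at 1439 against 10352 CPM, eosinophil markers at 508 against 19362 and progenitor markers at 296 against 4001. Within these lists the neutrophil marker Mmp8 went the other way, at 762 CPM (18 UMIs) in the 9 cells against 119. So did the progenitor marker Flt3, with 1 UMI in them. The summed plasmacytoid dendritic markers stood at 127 CPM in them against 14.2 in the other cells, which in the 9 cells was 3 UMIs, all of Tcf4. Siglech, Ccr9 and Spib had 0 UMIs in the 9 cells and 0, 0 and 1 in the other 1395. A doublet caller (Scrublet) marked 0 of the 9, and 0 carried a barcode found in another library.

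The single high cell at CAF-1 OFF 0 h, before IPTG, held 46 core UMIs of 7180 and 17 of the library's 19 Ifit1 UMIs, 8 of its 10 Isg15 UMIs and 4 of its 5 Rsad2 UMIs. The 0 h levels of these genes in CAF-1 OFF therefore rest mostly on 1 cell. Without high cells the core fold in CAF-1 OFF was 3.09 (2.75 to 3.48) at 48 h and 5.11 (4.58 to 5.73) at 96 h, slightly above the values with them. Of the 301 Ifih1 UMIs at CAF-1 OFF 96 h, 5 were in its 4 high cells.

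At HOXA9 OFF 96 h the 386 high cells among 1510 held 89.3% of the Ifit3 UMIs, 83.7% of Ifit1, 74.3% of Isg15 and 69.6% of Ifi27l2a. Their share was lower for Ifi35 (51.6%), Ifitm3 (50.2%), B2m (43.7%) and Ifitm1 (16.8%). Without them the core fold was 22.5 (20.1 to 25.2). Neutrophil markers stood at 107750 CPM in them against 166907 in the other cells, the secondary granule gene Ltf at 1553 against 4534, and monocyte or macrophage markers at 1952 against 570. Splitting the thinned cells by Ltf alone gave a mean of 4.03 core UMIs in the 750 cells with Ltf and 7.12 in the 626 cells without, at median depths of 2137.5 and 2149 UMIs. Cells with at least 10 UMIs of Prg2, an eosinophil granule gene, numbered 52 and held a mean of 1.71, against 5.58 in the rest. In each of these splits a majority of cells held a core UMI, from 63.5% of the Prg2-high cells to 85.6% of the cells without Ltf.

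Whether single members travelled together was described by the other core UMIs of cells with and without each gene. At CAF-1 OFF 96 h, thinned cells with an Isg15 UMI held on average 1.68 other core UMIs against 0.507 in cells without, and cells with Usp18 held 1.51 against 0.518. For Ifih1 the values were 0.800 in 60 cells against 0.524 in 842. At HOXA9 OFF 96 h, cells with Isg15 held 9.03 against 2.86 and cells with Ifit3 12.9 against 3.56. The high cells were chosen by these same core UMIs, so leaving them out lowers the means and cannot show what carried the difference. Without them the HOXA9 OFF 96 h means were 2.96 against 1.86 for Isg15 and 3.92 against 2.13 for Ifit3, and those of CAF-1 OFF 96 h were 1.19 against 0.507 for Isg15 and 0.970 against 0.518 for Usp18. Ifitm1 went the other way at HOXA9 OFF 96 h, at 4.91 in cells that held it against 5.84, and at 2.15 against 2.38 without high cells. At CAF-1 OFF 96 h Ifitm1 did not, with 0.622 against 0.458. Ifitm1 was found in 37.6%, 62.5% and 92.0% of thinned CAF-1 OFF cells and 27.5%, 17.2% and 43.0% of thinned HOXA9 OFF cells. For Ifitm3 the shares were 42.2%, 75.0% and 88.1%, and 30.1%, 30.9% and 91.1%. Ifih1 was found in 0.158%, 2.32% and 6.65% of thinned CAF-1 OFF cells and 0.212%, 0.145% and 2.76% of thinned HOXA9 OFF cells.

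The interferon genes themselves were nearly silent. Of 12 ligand genes (Ifna1, Ifna2, Ifna4, Ifna5, Ifna6, Ifnb1, Ifne, Ifng, Ifnk, Ifnl2, Ifnl3 and Ifnz), 10 had 0 UMIs in all libraries, where a count of 0 allows up to 0.537 to 0.851 CPM. Ifnb1 had 1 UMI at HOXA9 OFF 48 h, in a high cell with 68 core UMIs of 3030, and 5 UMIs at HOXA9 OFF 96 h, all in 1 high cell with 77 core UMIs of 3105. No Ifnb1 UMI (0) was counted in CAF-1 OFF at any time. Ifnz had at most 6 UMIs in a library, at CAF-1 OFF 96 h.

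Further genes of the pathway were taken from lists of receptors, kinases, sensors, negative regulators, class I presentation and further induced genes. Together with the ligands these 88 genes counted 2 and 5 past 2-fold at 48 and 96 h of CAF-1 OFF, against 13 and 37 for HOXA9 OFF, with 0 lower. Over all genes the higher shares were 1.27%, 2.75%, 6% and 10.3%, and the CAF-1 OFF counts are too small to be set apart from them. In CAF-1 OFF they were Ifi27 and Sp100 at both times, joined at 96 h by Gbp7 and the class I heavy chains H2-K1 and H2-D1. Ifi27 stood at 83.0, 243 and 401 CPM over the CAF-1 OFF time course and at 88.3, 163 and 184 CPM over the HOXA9 OFF time course, so that it was higher in CAF-1 OFF at 96 h while its relative Ifi27l2a was higher in HOXA9 OFF. In CAF-1 OFF cells H2-K1 stood at 304, 444 and 699 CPM, and HOXA9 OFF cells had 331, 190 and 525 CPM.

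Receptor, kinase and sensing genes were also read in HOXA9 OFF. Ifngr1, the binding chain of the interferon-gamma receptor, was measured at 65.0, 70.0 and 80.5 CPM along CAF-1 OFF and at 51.5, 162 and 234 CPM along HOXA9 OFF. At 48 h of HOXA9 OFF, 2 of 6 receptor genes, 1 of 4 kinase and STAT genes and 4 of 18 sensing genes were past 2-fold, and at 96 h 3, 3 and 6 were, beside 6% and 10.3% of all genes. These groups are small, and no more is read from their counts. The genes were Ifngr1, Ifngr2, Jak2, Irf5 and Samhd1 at both times, Ikbke and Irf8 at 48 h, and Ifnar2, Jak1, Stat3, Tlr7, Myd88, Eif2ak2 and Adar at 96 h. Negative regulators past 2-fold were Ptpn6 at both times and Irf2 at 96 h, and Tapbp of the class I pathway was at both times with H2-D1 at 96 h.

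Over all genes, 6% and 10.3% were past 2-fold higher at 48 and 96 h of HOXA9 OFF. Of 33 further interferon-induced genes, 4 were past 2-fold at HOXA9 OFF 48 h (Ifitm6, Sp100, Slfn2 and Ifi204) and 21 at 96 h. Those at 96 h were the same 4 and Ifit3b, Cmpk2, Herc6, Parp9, Dtx3l, Samd9l, Slfn5, Slfn8, Ifi203, Trim25, Gbp2, Gbp7, Irgm1, Irgm2, Cxcl10, Phf11b and Ube2l6. Ifitm6 stood at 1.19, 1.97 and 7.23 CPM over the CAF-1 OFF time course and at 0.716, 250 and 1943 CPM over the HOXA9 OFF time course. With CAF-1 OFF, Slfn2 stood at 0, 3.22 and 9.83 CPM, and HOXA9 OFF cells had 0, 101 and 715 CPM. These 2 were thus already above 100 CPM at HOXA9 OFF 48 h, where Isg15, Ifit1 and Irf7 stood at 13.9 to 16.6 CPM.

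Cell type markers moved with the libraries in which the members were compared. Summed neutrophil markers were measured at 33.2, 715 and 1187 CPM along CAF-1 OFF and at 28.2, 10312 and 150744 CPM along HOXA9 OFF. The CAF-1 OFF sum was mostly Mmp8 and Lcn2, at 726 and 429 CPM in the 907 cells at 96 h that were not high cells. Every other listed neutrophil marker stood at 22.6 CPM (S100a8) or less in those 907 cells, and Ltf and Ly6g at 0. Progenitor markers were measured at 7413, 8926 and 11327 CPM along CAF-1 OFF and at 6546, 3985 and 114 CPM along HOXA9 OFF, so they were present at 0 h of both clones and nearly lost at HOXA9 OFF 96 h. Eosinophil markers peaked at HOXA9 OFF 48 h (19278 CPM against 217 to 3251 elsewhere), and mast cell or basophil markers at CAF-1 OFF 96 h (4050 CPM against 85.1 to 1469). Monocyte or macrophage markers lay between 481 and 948 CPM in the 6 libraries. The 6 plasmacytoid dendritic markers summed to 146, 67.8 and 129 CPM along CAF-1 OFF, and the HOXA9 OFF libraries held 147, 14.7 and 19.6 CPM of them. Nearly all of these UMIs were of Cox6a2, Runx2 and Tcf4, while Siglech had 1 UMI in all libraries together and Ccr9 had 0. The part of these changes in cell type in the member levels was not tested.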

How the data were processed

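The deposited table held raw UMI counts per gene and cell for all 6 libraries, made by the authors with Cell Ranger (3.0.1 in the submitters' processing notes) on mm10, with Seurat 3.0.1 and Scanpy 1.4.6 also named there. Each barcode was placed in its library by the label joined to it. No value column belonged to another sample. The counts were whole numbers and were used without further correction, and free RNA and doublets (125 of 5872 cells marked by Scrublet, 2.13%) were left in. Cells were filtered as the study states, and UMIs were summed per gene and library and scaled to CPM (Python 3.11.15, scanpy 1.11.5, numpy 2.4.6, scipy 1.17.1).

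With 1 library per group there was no test. A member was counted as higher or lower when log2((CPM + 10)/(CPM at 0 h + 10)) was at least 1 or at most -1. CPM carry exact 95% Poisson intervals, and folds and shares carry exact binomial (Clopper-Pearson) intervals. These cover counting error only, and a count of 0 was given a limit of 3 counts. A fold is the ratio of CPM without a pseudocount. All genes were run through the same steps. For shares of cells, 1300 UMIs were drawn per cell with a fixed seed. Members with at least 20 CPM in a library are given in all 6 libraries and the others by UMI count; other pathway genes are named when past 2-fold with at least 20 CPM. A further pathway gene is not reported here.

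The members and lists were chosen with earlier results of these data known. Alternatives were other pseudocounts, thresholds, minimum levels, scalings (edgeR 4.0.16 TMM, median of ratios), cell filters, thinning depths and the removal of doublet calls, of Ifi27l2a or of high cells. The last was chosen after seeing the data.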

Additional observations from a re-analysis of the deposited data

Results flagged for a closer look

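Several members lay above their 0 h level in the CAF-1 OFF library and below it in the HOXA9 OFF library of the same time, with both counting intervals clear of 1. The difference between the clones was not tested, since each group was 1 library. At 48 h, Bst2 was 1.55 times its 0 h level in CAF-1 OFF and 0.493 times in HOXA9 OFF. Ifi47 was 1.59 times and 0.464 times. Of the immunoproteasome subunits, Psmb8 was 1.09 times and 0.579 times and Psmb9 1.32 times and 0.600 times. Ifitm2 was 1.12 times and 0.849 times, although with TMM or median-of-ratios scaling the HOXA9 OFF value was 1.05 or 1.00. At 96 h Psmb8 was 1.1 times its 0 h level in CAF-1 OFF and 0.851 times in HOXA9 OFF, which became 1.19 and 1.26 under the same scalings of HOXA9 OFF.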

How the results depend on the processing

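No paired analysis was possible because each group was 1 library and the labels give no replicate numbers. Counts are members at least 2-fold higher among those with a mean of 20 CPM, which were 2, 9, 5 and 17 at CAF-1 OFF 48 h and 96 h and HOXA9 OFF 48 h and 96 h. With a pseudocount of 1 CPM, the first 3 became 11, 15 and 9 (with 2 lower at HOXA9 OFF 48 h), and with 50 CPM CAF-1 OFF 96 h and HOXA9 OFF 48 h became 3 and 0. At a 1.5-fold limit they were 12, 15 and 11 (3 lower at HOXA9 OFF 48 h), and at a 4-fold limit 0, 3 and 0. With no minimum level HOXA9 OFF 96 h had 28. Counts with all barcodes kept were 2, 9, 6 and 18, and without doublet calls 2, 9, 5 and 17. Without high cells HOXA9 OFF 48 h had 0 (1 lower) and HOXA9 OFF 96 h had 7, and with no minimum level besides, CAF-1 OFF 48 h had 4, HOXA9 OFF 48 h 0 (1 lower) and HOXA9 OFF 96 h 23. The shares of all genes were not counted under the other pseudocounts, fold limits and cell filters. These counts therefore show how the calls moved and are not read as a result about the members.

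The core fold at HOXA9 OFF 48 h (2.68) was 3.31 by TMM, 3.16 by median of ratios and 1.68 without high cells. At HOXA9 OFF 96 h (53.9) it was 75.5 by TMM, 79.7 by median of ratios, 40.1 without mitochondrial and ribosomal genes in the total, 40.5 without Ifi27l2a and 22.5 without high cells. The median log2 ratios (0.58, 0.71, 0.43 and 1.85) were 0.95, 1.5, 0.82 and 3.64 with a pseudocount of 1 CPM, and CAF-1 OFF 48 h, CAF-1 OFF 96 h and HOXA9 OFF 96 h were 0.18, 0.28 and 1.07 with 50 CPM.

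When thinned to 2600 UMIs, 18.1%, 44.6% and 58.5% of the CAF-1 OFF cells at 0, 48 and 96 h held a core UMI, and 20.1%, 23.9% and 90.8% of the HOXA9 OFF cells. Not thinned, they were 40.6%, 68.5%, 77.2%, 47.1%, 32.1% and 87.0% in the same order. For at least 2 core UMIs they were 1.74%, 6.28%, 12.6%, 0.424%, 3.63% and 65.3%. Without Ifi27l2a the share at HOXA9 OFF 96 h was 74.5%. No core fold and no median log2 ratio reversed its direction under these alternatives. The share of cells at HOXA9 OFF 48 h was above that at 0 h when thinned and below it when not thinned (32.1% against 47.1%). The causes of the differences were not tested. The low UMI counts of Mx1, Ifi44, Stat2 and Oas1a limit what can be said of them.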
